A study of Mus musculus with 16 samples.

Results

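The genes followed here are 7 products of mucosal defence and goblet-type secretion: the iron-binding protein lactoferrin (Ltf), the siderophore-binding protein lipocalin 2 (Lcn2), the antibacterial lectin Reg3g, the trefoil peptide Tff3, the membrane mucin Muc1, the disulphide isomerase Agr2 and the secreted glycoprotein Olfm4. They were taken by name from the 29535 genes of an RNA-seq table of mouse prostate, with earlier results of these data known. The 16 libraries came from prostates of mice of 12 months on a hybrid 129/SvImJ and C57Bl/6J background, either wild type (+/+) or homozygous mutant (-/-) for 1 gene, given vehicle or finasteride. Finasteride blocks 5-alpha-reductase, the enzyme that turns testosterone into dihydrotestosterone, the stronger androgen of the prostate. In each genotype 3 libraries were from vehicle and 5 from finasteride. The dose, the length of treatment and the lobe taken are not given in the sources used here. The question behind the design was whether the response to finasteride depends on the genotype.

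Mucosal epithelia protect their surface with a layer of mucins and with secreted proteins that bind, starve or kill bacteria. Ltf withholds iron, Lcn2 captures the bacterial carriers of iron, and Reg3g binds the cell wall of Gram-positive bacteria. Tff3 is secreted with mucins and aids repair of the epithelium, Muc1 forms part of the surface coat, and Agr2 resides in the endoplasmic reticulum, where it is needed for the folding of mucins. Olfm4 is best known from intestinal crypts and from neutrophil granules, and Ltf and Lcn2 are stored in neutrophil granules as well as made by epithelium.

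All values are deposited normalized expression on a log2 scale, and differences are log2 fold changes ± SE from a limma model of the 4 group means, with a threshold of 0.05 on the adjusted p. Whether values are scaled by gene length is not given in the sources used here, so levels are compared between groups and not between genes. Tests covered 16895 genes, those whose values taken out of log2 averaged 10 or more, and all 7 genes were among them. Ltf, Tff3 and Reg3g owed this to mutant finasteride, without which their means were 9.71, 3.89 and 8.34. Their calls against that group are therefore given as values, and the counts that include them support nothing. Whether libraries are separate animals is not given in the sources used here, and p-values thus describe the variation between libraries, which could be technical in part.

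Several libraries stood apart. Within each group the values of some libraries, 5 in all, could be written as a mixture of 2 others. The residual SD was 0.0764 to 0.0968 over 9030 genes. These mixture-like libraries were wild type vehicle 3, wild type finasteride 4, mutant vehicle 3 and mutant finasteride 3 and 4. Each test was repeated on the other 11. The summed level of 8 seminal vesicle genes was over 20 in 6 libraries, wild type vehicle 1 and 3 and mutant finasteride 1, 3, 4 and 5, and 9.45 to 17.94 in the rest, and each test was repeated on those 10 too, with 1 library left in each of those groups and assumed to vary like the others. Sbp, a secretory protein of the ventral lobe, was 19.68 to 19.85 in wild type vehicle, 9.95 and 10.39 in wild type finasteride libraries 1 and 5 and 18.34 to 19.36 in libraries 2 to 4, 6.02 to 8.98 in mutant vehicle and 15.91 to 16.61 in mutant finasteride. The luminal keratin Krt8 was 12.05 to 12.93 in every library, and Epcam was 12.96 to 14.51. What part the seminal vesicle RNA and the lobes taken had in the results was not tested beyond these repeats.

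In the mutant, finasteride went with higher Ltf, Lcn2, Reg3g, Tff3 and Muc1 and with lower Agr2 and Olfm4. In wild type prostate, Lcn2 and Reg3g were lower on finasteride, Olfm4 was higher, and Ltf, Tff3, Muc1 and Agr2 did not pass. For the finasteride effect in the mutant, 5 of the 7 genes were higher, beside 26.3% of all genes tested, and 2 were lower, beside 22.3%. In wild type, 1 was higher and 2 were lower, beside 17.9% and 21.9% of all genes tested. Between mutant and wild type on finasteride, 5 were higher and 2 lower in the mutant, beside 33.9% and 29.7%. On vehicle, 0 were higher and 2 lower in the mutant, beside 14.3% and 17.5%. The difference between the finasteride effects in the genotypes, called the interaction below, passed for all 7, with 5 higher and 2 lower in the mutant, beside 30.2% and 26.6% of all genes tested. Counts over all genes depended on the scaling: 4439 were higher and 3767 lower for the finasteride effect in the mutant, and 3620 and 5576 after centring each library on its median, which moved the median of all genes by -0.14 for this effect and by -0.21 for the interaction. The interaction had 5108 higher and 4489 lower, and 4246 and 6291 after centring. For finasteride in wild type the counts were 3027 and 3694, and 3664 and 2758 after quantile normalization; for the genotypes on vehicle 2413 and 2961, and 3164 and 2542 after centring; and for the genotypes on finasteride 5735 and 5022, and 4831 and 6508 after centring. The called effects of the 7 genes kept their direction under both scalings. The plot of levels by library shows mutant finasteride apart from the other groups for Ltf, Lcn2, Tff3, Muc1 and Agr2. What share of all genes lies apart in this way was not counted, so this only describes these genes. Ltf and Tff3 passed the filter only through that group.

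**Figure D1:**
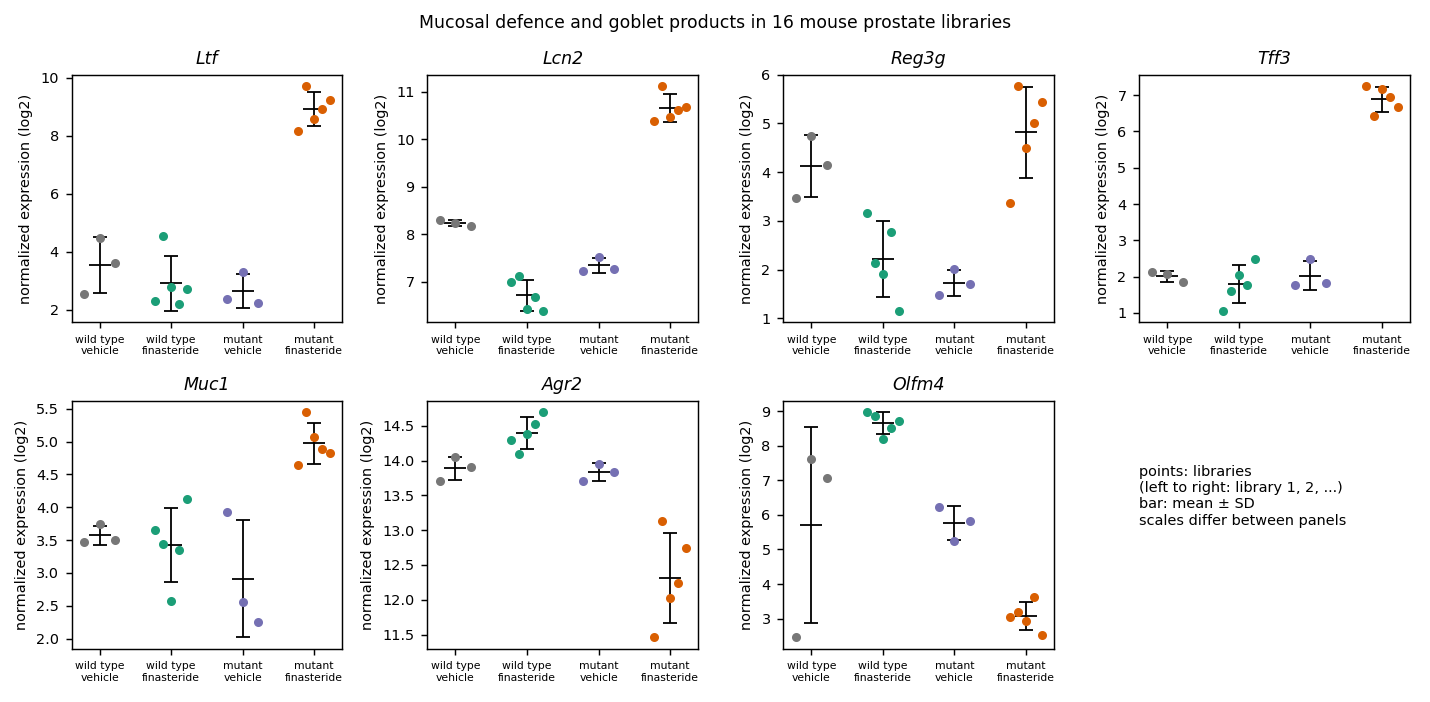
Normalized expression (log2, y axis) of the 7 genes in the 4 groups (x axis), with a point for each of the 16 libraries and bars for the mean ± SD. Mutant finasteride lies above every other library for Ltf, Lcn2, Tff3 and Muc1 and below them for Agr2, while for Olfm4 a single wild type vehicle library lies at 2.46, below the mutant finasteride libraries. Each panel has its own scale, and the share of all genes with such separation was not counted.

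Among the antimicrobial proteins, Ltf showed the largest finasteride effect in the mutant of the 7 genes. Its levels in wild type were 2.56, 4.47 and 3.62 on vehicle and 2.31, 4.56, 2.77, 2.20 and 2.73 on finasteride. In the mutant they were 2.38, 3.31 and 2.23 on vehicle and 8.16, 9.72, 8.59, 8.92 and 9.23 on finasteride. The 3 groups other than mutant finasteride overlapped one another near the bottom of the scale, and all 5 mutant finasteride libraries lay above them. With finasteride, Ltf was higher by 6.29 ± 0.53 in the mutant, or 78.0-fold, against -0.64 ± 0.53 in wild type (limma, adjusted p = 0.354 for wild type). The interaction was 6.92 ± 0.74. Mutant and wild type did not differ past the threshold on vehicle, at -0.91 ± 0.59 (limma, adjusted p = 0.259).

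Lcn2 separated all 4 groups. Its levels in wild type were 8.30, 8.23 and 8.18 on vehicle and 6.99, 7.12, 6.44, 6.68 and 6.39 on finasteride. In the mutant they were 7.24, 7.53 and 7.28 on vehicle and 10.38, 11.12, 10.46, 10.61 and 10.68 on finasteride. No pair of groups overlapped, and the order from low to high was wild type finasteride, mutant vehicle, wild type vehicle and mutant finasteride. Finasteride was accompanied by opposite differences in the genotypes, -1.51 ± 0.18 in wild type (limma, adjusted p = 3.85e-05) and 3.30 ± 0.18 in the mutant (adjusted p = 4.08e-09), an interaction of 4.81 ± 0.25 (adjusted p = 4.08e-09). On vehicle the mutant was lower by -0.89 ± 0.20 (limma, adjusted p = 0.00302), a difference of the same size that no longer passed over 11 or over 10 libraries (-0.89 in both).

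Reg3g had the signs of Lcn2 in each comparison. In wild type it was 3.47, 4.75 and 4.14 on vehicle and 3.15, 2.14, 1.91, 2.77 and 1.15 on finasteride. In the mutant it was 1.48, 2.01 and 1.70 on vehicle and 3.37, 5.77, 4.50, 5.01 and 5.43 on finasteride. Vehicle and finasteride libraries did not overlap in either genotype, while mutant finasteride overlapped wild type vehicle and the remaining groups overlapped each other. Finasteride went with -1.89 ± 0.51 in wild type (limma, adjusted p = 0.0094). In the mutant the effect was 3.08 ± 0.51, with an interaction of 4.98 ± 0.73. On vehicle the mutant was lower by -2.39 ± 0.57 (limma, adjusted p = 0.00533). The wild type effect did not pass over 11 libraries (-2.02) or over 10 (-2.53), and the vehicle difference did not pass over 11 (-2.36). Reg3b, a close paralog whose reads could be hard to separate from those of Reg3g, was 2.86 to 4.21 in mutant finasteride and 0.72 to 2.85 elsewhere, and fell under the filter.

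Of the goblet-type products, Tff3 had low values outside mutant finasteride. Its levels in wild type were 2.12, 2.07 and 1.84 on vehicle and 1.05, 1.60, 2.03, 1.76 and 2.47 on finasteride. In the mutant they were 1.76, 2.48 and 1.83 on vehicle and 7.26, 6.43, 7.17, 6.94 and 6.67 on finasteride. The lowest mutant finasteride library was above the highest of all others, and the other 3 groups overlapped. Tff3 was higher with finasteride in the mutant by 4.87 ± 0.30, with an interaction of 5.10 ± 0.43. In wild type the effect was -0.23 ± 0.30 (limma, adjusted p = 0.572). On vehicle, the genotypes differed by 0.01 ± 0.34 (limma, adjusted p = 0.985).

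Muc1 showed the smallest of the 5 increases. In wild type it was 3.47, 3.74 and 3.50 on vehicle and 3.65, 3.44, 2.57, 3.35 and 4.13 on finasteride. In the mutant it was 3.93, 2.56 and 2.25 on vehicle and 4.64, 5.45, 5.07, 4.89 and 4.82 on finasteride. Mutant finasteride again lay above every other library, by a narrow margin over wild type finasteride library 5 and mutant vehicle library 1. The finasteride effect was 2.06 ± 0.37 in the mutant (limma, adjusted p = 3.34e-04) and -0.14 ± 0.37 in wild type (adjusted p = 0.785). The interaction of 2.20 ± 0.52 (limma, adjusted p = 0.00223) did not pass after quantile normalization (1.33), over 11 libraries (1.88) or over 10 (2.85).

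Agr2, the isomerase, was lower in mutant finasteride than in any other group. Its levels in wild type were 13.71, 14.05 and 13.91 on vehicle and 14.30, 14.10, 14.38, 14.53 and 14.70 on finasteride. In the mutant they were 13.71, 13.96 and 13.84 on vehicle and 11.46, 13.13, 12.02, 12.24 and 12.74 on finasteride. The vehicle groups overlapped, wild type finasteride lay just above both, and mutant finasteride lay below every other library. With finasteride, Agr2 was lower in the mutant by -1.52 ± 0.27, or 2.86-fold (limma, adjusted p = 2.91e-04), and in wild type the difference was 0.51 ± 0.27 (adjusted p = 0.139), with an interaction of -2.03 ± 0.38 (adjusted p = 3.58e-04). The highest of the mutant finasteride libraries, library 2 at 13.13, was also the one low in seminal vesicle RNA (16.69, against 20.50 to 21.54 in the other 4). From the mutant finasteride library richest in that RNA to the poorest (1, 3, 4, 5, 2), Agr2, Ltf, Lcn2 and Reg3g rose at each step and Tff3 fell. Muc1 and Olfm4 did not keep this order, and what the order owes to seminal vesicle RNA was not tested. Library 3 is close to a mixture of 1 and 5, and library 4 to a mixture of 1 and 2. Their places in the order are therefore not separate steps. Without the 6 libraries rich in that RNA the mutant effect was -0.71 and the interaction -1.06, and both passed.

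Olfm4 ran opposite to the antimicrobial genes. In wild type it was 2.46, 7.60 and 7.06 on vehicle and 8.97, 8.86, 8.19, 8.52 and 8.72 on finasteride. In the mutant it was 6.22, 5.23 and 5.82 on vehicle and 3.05, 3.20, 2.93, 3.63 and 2.52 on finasteride. Wild type finasteride was the highest group and overlapped none, mutant vehicle and mutant finasteride did not overlap, and wild type vehicle library 1 lay far below the other 2 of its group. The finasteride effect was 2.95 ± 0.79 in wild type (limma, adjusted p = 0.00853) and -2.69 ± 0.79 in the mutant (adjusted p = 0.0106), and the interaction was -5.63 ± 1.11 (adjusted p = 5.75e-04). Wild type vehicle library 1 is rich in seminal vesicle RNA (21.73). Without it the wild type effect was 1.32 and passed, and the vehicle difference between genotypes went from 0.05 ± 0.88 to -1.57 and passed. Library 3 of that group is close to a mixture of libraries 1 and 2. The fit without library 1 thus rests on library 2 and that mixture. Which of libraries 1 and 2 stands apart cannot be told. Over 11 libraries neither finasteride effect passed (3.66 and -2.80), and without the 6 libraries rich in seminal vesicle RNA the wild type effect was 1.05 and did not pass, the mutant effect was -2.55 and passed, and the interaction was -3.60 and passed.

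**Figure D2:**
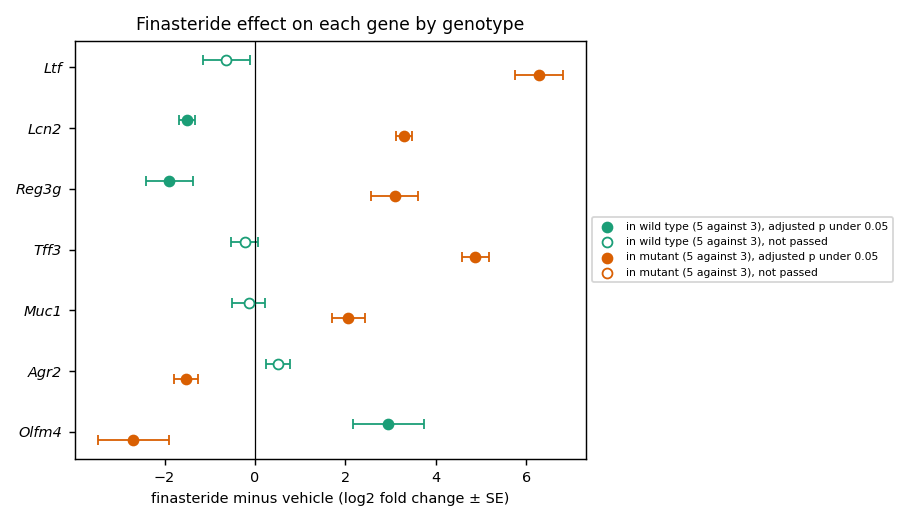
Finasteride effect (log2 fold change ± SE, x axis) for each of the 7 genes (y axis) in wild type and in mutant, 5 libraries against 3 in each genotype; filled points passed an adjusted p of 0.05. The mutant effects run from -2.69 for Olfm4 to 6.29 for Ltf, and Lcn2 and Olfm4 passed in both genotypes with opposite signs. The mutant effects of Ltf, Tff3 and Reg3g are given as values only.

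Compared on finasteride alone, mutant and wild type differed for each gene, beside 33.9% of all genes tested called higher and 29.7% called lower in the mutant. Ltf was higher in the mutant by 6.01 ± 0.46, Tff3 by 5.11 ± 0.26 and Reg3g by 2.59 ± 0.45, given as values only. Lcn2 was higher by 3.92 ± 0.15 (limma, adjusted p = 2.67e-11) and Muc1 by 1.55 ± 0.32 (adjusted p = 6.07e-04). Agr2 was lower by -2.09 ± 0.23 (limma, adjusted p = 1.58e-06) and Olfm4 by -5.59 ± 0.68 (adjusted p = 4.17e-06). These comparisons share libraries with the finasteride effect in the mutant, so the same calls in both are not separate evidence. Over 11 libraries all 7 kept their signs, and Lcn2, Muc1, Agr2 and Olfm4 passed again, beside 3780 higher and 3166 lower of 16895 genes. Over 10 libraries, with 1 left in mutant finasteride, Agr2 was at -1.27.

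Since most of these genes moved together in mutant finasteride and Olfm4 moved the other way, the bases just before the start of transcription are shown for 3 of the antimicrobial genes and for Olfm4. The sequences are from RefSeq on build GRCm38.p6, whereas the expression data were made on mm9, and 6 of the 7 genes had an entry. Each run gives the 130 bases before the start, 5′ to 3′ on the strand of the gene. Capitals mark 2 motifs chosen with the sequences in view: ATAAA, which resembles part of a TATA box, on the strand of the gene 20 to 40 bases before the start, and GGGNNNNNCC, the outer letters of an NF-kB site, on either strand, with overlapping matches joined.
Ltf (chr9:111019162-111019291, plus strand): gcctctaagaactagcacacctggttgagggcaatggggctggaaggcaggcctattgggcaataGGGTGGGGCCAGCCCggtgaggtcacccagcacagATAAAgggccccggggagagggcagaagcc
Lcn2 (chr2:32387740-32387869, minus strand): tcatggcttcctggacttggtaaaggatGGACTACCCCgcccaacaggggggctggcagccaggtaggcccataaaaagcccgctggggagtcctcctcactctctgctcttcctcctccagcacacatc
Reg3g (chr6:78468875-78469004, minus strand): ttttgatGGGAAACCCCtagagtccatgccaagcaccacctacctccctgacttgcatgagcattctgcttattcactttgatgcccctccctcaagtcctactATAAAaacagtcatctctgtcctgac
Olfm4 (chr14:80000172-80000301, plus strand): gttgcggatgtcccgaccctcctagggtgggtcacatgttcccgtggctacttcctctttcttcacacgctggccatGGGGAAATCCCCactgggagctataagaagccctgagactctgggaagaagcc

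Within the 250 bases before the start, GGGNNNNNCC was found in 4 of the 6 promoters, those of Ltf, Lcn2, Reg3g and Olfm4, and in 45.8% of 32851 promoters of the same length. The match in Lcn2 lies 102 to 93 bases before the start, that in Reg3g 123 to 114 bases before it, and those in Olfm4 within 53 to 42 bases before it. ATAAA in its window was found for Ltf, Muc1 and Reg3g, or 3 of 6, and in 4.25% of all promoters. AGAACA, the hexamer that androgen receptor elements are built from, was in 0 of the 6 on either strand and in 16.1% of all. A match describes the letters of the window and is no evidence that a factor binds there. Of the genes that were higher with finasteride in the mutant, Ltf, Lcn2 and Reg3g carry GGGNNNNNCC and Muc1 does not, and of those that were lower, Olfm4 carries it and Agr2 does not.

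For the finasteride effects, other secreted antimicrobial and acute phase proteins gave counts of the same signs as Ltf, Lcn2 and Reg3g. Of 28 measured, 19 were tested. With finasteride 12 rose and 1 fell in the mutant (median 1.93, beside a median of -0.0022 for all genes tested). In wild type 2 rose and 14 fell (median -1.44, beside -0.03). On vehicle, 1 was higher and 8 lower in the mutant (median -0.96), beside 14.3% and 17.5% of all genes tested. The summed level of the 28 was 13.69 to 13.97 in mutant finasteride and 13.095 to 13.355 in mutant vehicle. In wild type it was 13.69 to 14.32 on vehicle and 13.21 to 13.40 on finasteride, so mutant finasteride did not exceed wild type vehicle. Pglyrp1, which recognizes peptidoglycan, rose in the mutant by 2.96 ± 0.20 (limma, adjusted p = 5.30e-08), Lbp, the binding protein of bacterial lipopolysaccharide, by 1.93 ± 0.15 (adjusted p = 1.40e-07) and Wfdc2, a protease inhibitor of mucosal fluids, by 3.08 ± 0.35 (adjusted p = 6.90e-06). The lysozyme Lyz1 was the 1 that fell, by -2.15 ± 0.27 (limma, adjusted p = 1.50e-05), and its reads are uncertain because of its near-identical paralog Lyz2. In wild type, haptoglobin (Hp) fell by -4.23 ± 0.61 (limma, adjusted p = 1.62e-04) and ceruloplasmin (Cp) by -0.99 ± 0.12 (adjusted p = 5.15e-05). Over 10 libraries the counts were 9 and 1 in the mutant and 0 and 7 in wild type, and over 11 they were 10 and 1, and 0 and 6. Genes that pass the filter only through a group where they are high had to differ, so the counts of this and the following lists are descriptions. Among all genes tested, 26.3% rose and 22.3% fell with finasteride in the mutant, and 17.9% rose and 21.9% fell in wild type. These shares stand beside every list below. Over 11 libraries the counts over all 16895 genes were 1901 and 1530 in the mutant, and 601 and 844 in wild type.

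Goblet cell genes did not move as a group with finasteride. Of 29 measured, 14 were tested. Finasteride went with 4 higher and 3 lower in the mutant (median 0.03), near the shares of 26.3% and 22.3% over all genes tested. In wild type 3 were higher and 7 lower (median -0.69), beside 17.9% and 21.9%. After quantile normalization the mutant counts were 2 higher and 5 lower, and over 10 libraries they were 1 and 3, with 2 and 1 in wild type. Fcgbp, a mucus-gel protein, and Spdef, a transcription factor of goblet cells, had the sign of Agr2: Fcgbp was 13.38 to 14.00 in wild type finasteride and 9.36 to 10.18 in mutant finasteride, and fell with finasteride in the mutant by -2.35 ± 0.21 (limma, adjusted p = 8.76e-07), while Spdef fell by -0.89 ± 0.10 (adjusted p = 4.36e-06). The gastric mucous cell products Tff1, Tff2 and Muc5ac and the intestinal goblet products Zg16 and Retnlb were under the filter. The gene under the symbol Clca1 was 5.28 to 7.13 in mutant finasteride and 4.09 to 4.80 in mutant vehicle. It rose by 2.05 ± 0.41 (limma, adjusted p = 7.75e-04), and the gene under Clca3 rose by 2.22 ± 0.73 (adjusted p = 0.0201). Some genes appear under older symbols, such as Igj and Emr1, so which of Clca1 and Clca3 is the goblet cell product is uncertain. Muc2, the main gel-forming mucin of the intestine, was at 0.46 ± 0.47 (limma, adjusted p = 0.435). Quiescin sulfhydryl oxidase 1 (Qsox1), which forms disulphides in secreted proteins, fell in wild type by -2.56 ± 0.43 (limma, adjusted p = 4.38e-04). Between the genotypes on vehicle, 1 gene of this list was higher and 4 lower in the mutant, beside 14.3% and 17.5% of all genes tested. Qsox1 was the higher one, by 3.575 ± 0.48 (limma, adjusted p = 5.02e-05). Muc19 was lower by -7.22 ± 0.77 (limma, adjusted p = 7.05e-06) and Creb3l1 by -3.51 ± 0.21 (adjusted p = 2.92e-08).

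Of 7 other membrane mucins, 4 were tested, and all 4 were higher with finasteride in the mutant (median 3.41), against 1 higher and 0 lower in wild type (median 0.49). Muc4 was higher in the mutant by 4.0 ± 0.59, given as a value only, since it was tested only because of its level in mutant finasteride. Muc20 was higher there by 2.81 ± 0.48 (limma, adjusted p = 2.31e-04). Gm9573, with the highest values of the list, was at 4.24 ± 1.64 in the mutant (limma, adjusted p = 0.0427). The summed level of the 7 mucins was 10.14 in wild type finasteride library 2 and 6.57 to 7.055 in the others of that group. In mutant finasteride that sum was 6.47 to 9.60. In mutant finasteride library 2, Muc4 was 3.94 and Muc20 was 4.83, against 6.35 to 7.31 and 6.68 to 7.71 in the other 4 libraries, which are the ones rich in seminal vesicle RNA. Without the libraries rich in that RNA, 0 of the 4 passed in either direction, and over 11 libraries 2 rose, whereas Muc1 was 5.45 in library 2, the highest of its group.

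For Agr2, the list of 13 other protein disulphide isomerases had 12 tested, of which 0 rose and 6 fell with finasteride in the mutant (median -0.44). In wild type 3 rose and 2 fell (median 0.22), near the shares of 17.9% and 21.9% over all genes tested. Pdia5 was higher in wild type by 0.65 ± 0.10 (limma, adjusted p = 1.94e-04) and lower in the mutant by -0.51 ± 0.10 (adjusted p = 5.20e-04), the signs of Agr2, and Erp44, which retains client proteins in the early secretory pathway, fell in the mutant by -0.85 ± 0.13 (adjusted p = 9.55e-05). Over 11 libraries and over 10, 2 isomerases fell in the mutant. Olfm4 had no such company in its family: of 6 tested olfactomedin genes, 6 rose and 0 fell with finasteride in the mutant (median 0.90), and 0 rose and 5 fell in wild type (median -0.67), with Olfml3, the lowest p in both, at 0.89 ± 0.11 in the mutant (limma, adjusted p = 1.15e-05) and -0.90 ± 0.11 in wild type (adjusted p = 4.51e-05). Over 11 libraries 3 rose in the mutant, and over 10 there was 1.

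Of the cytokines, receptors and transcription factors that act at mucosal surfaces, 32 of 36 were tested; 13 rose and 3 fell with finasteride in the mutant (median 0.24), and 10 rose and 12 fell in wild type (median -0.07). The ligands Il17a, Il22 and Il6, known inducers of Lcn2 or Reg3g in mucosa, were under the filter, with no library over 2.61. Il17re, a receptor chain for IL-17C, rose in the mutant by 1.24 ± 0.10 (limma, adjusted p = 2.38e-07) and fell in wild type by -0.70 ± 0.10 (adjusted p = 1.30e-04). Il22ra1, the receptor for IL-22, fell in wild type by -1.31 ± 0.18 (limma, adjusted p = 9.89e-05). Relb, an NF-kB subunit, rose in the mutant by 1.26 ± 0.13 (adjusted p = 3.65e-06), and Ehf, an epithelial ETS factor, fell there by -1.30 ± 0.10 (adjusted p = 1.19e-07). For Socs3, a feedback inhibitor of STAT3 signalling, the interaction was 2.13 ± 0.27 (limma, adjusted p = 1.41e-05). In wild type the counts of this list were 2 and 2 over 11 libraries and 0 and 3 over 10.

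Iron handling, the process in which Ltf and Lcn2 take part, had 18 of 20 genes tested. With finasteride 9 rose and 2 fell in the mutant (median 0.39), beside 26.3% and 22.3% of all genes tested. In wild type 2 rose and 4 fell (median -0.06), which is no more than the shares of 17.9% and 21.9% or near them. Slc22a17, a receptor for Lcn2, rose in the mutant by 0.69 ± 0.08 (limma, adjusted p = 1.02e-05). The metal transporter Slc11a1 rose there by 1.35 ± 0.20 (limma, adjusted p = 8.37e-05), and the iron regulatory protein Ireb2 fell by -1.08 ± 0.12 (adjusted p = 5.41e-06). Over 11 libraries the mutant counts were 4 and 2, and over 10 they were 3 and 2.

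**Figure D3:**
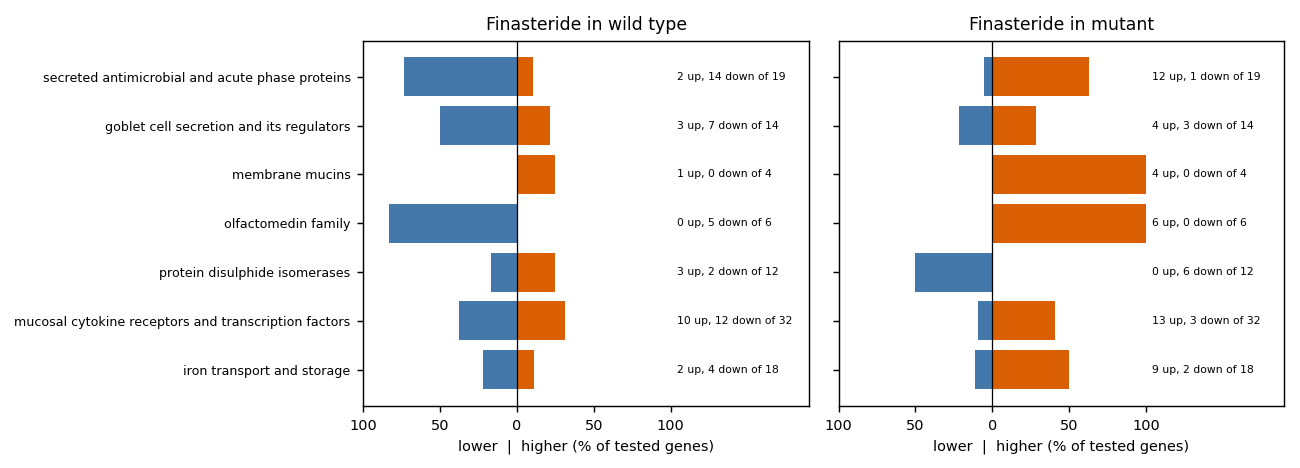
Share of tested genes of each list (x axis, percent) that passed higher (right) or lower (left) with finasteride in wild type and in mutant, with the counts printed beside each bar. The antimicrobial list has 14 of 19 lower in wild type and 12 of 19 higher in the mutant, while the goblet list has calls in both directions in both genotypes. Of all genes tested, 17.9% were higher and 21.9% lower in wild type, and 26.3% and 22.3% in the mutant.

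Markers of other cells moved with the same groups. In these bulk samples, fewer cells of a type and less RNA per cell cannot be told apart. The summed level of 14 neutrophil markers was 8.66 to 9.15 in wild type vehicle, 7.96 to 8.48 in wild type finasteride, 7.67 to 7.96 in mutant vehicle and 9.15 to 9.71 in mutant finasteride. Only 4 of the 14 were tested, all 4 rose with finasteride in the mutant, and the one with the highest values, Itgam, is shared with macrophages. The defining neutrophil genes S100a8, S100a9, Ngp, Elane, Mpo and Ly6g were at 4.38 or below in every library and under the filter. Within that low range, S100a8 was 3.2 to 3.99 in mutant finasteride and at most 2.66 elsewhere, and S100a9 was 3.14 to 4.38 and at most 3.13 elsewhere. Ly6g, Ngp, Elane and Mpo in mutant finasteride overlapped the other groups, with Ly6g at 0.43 to 2.61 against at most 2.83 elsewhere. The sum of 6 B and plasma cell markers was 11.12 to 11.70 in mutant finasteride and 6.08 to 7.91 in the other groups, all 6 rose with finasteride in the mutant, and the joining chain Igj was 10.84 to 11.46 there against 4.17 to 7.23 elsewhere.

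Markers of proximal luminal cells, the duct epithelium next to the urethra, moved too. Their sum over 8 genes was 13.19 to 13.28 in wild type vehicle, 11.47 to 12.13 in wild type finasteride, 14.91 to 15.10 in mutant vehicle and 16.46 to 16.67 in mutant finasteride. With finasteride 0 rose and 8 fell in wild type (median -1.18) and 8 rose and 0 fell in the mutant (median 2.11), which are the signs of Lcn2 and Reg3g in each genotype; over 11 libraries, and over 10, 2 of the 8 fell in wild type. On vehicle, 2 of the 8 were higher and 2 lower in the mutant (median 0.04), and the higher sum there went with Clu, at 14.78 to 14.99 against 12.60 to 12.73 in wild type. The part of these cells, of B and plasma cells and of neutrophils in the levels of the 7 genes was not tested.

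**Figure D4:**
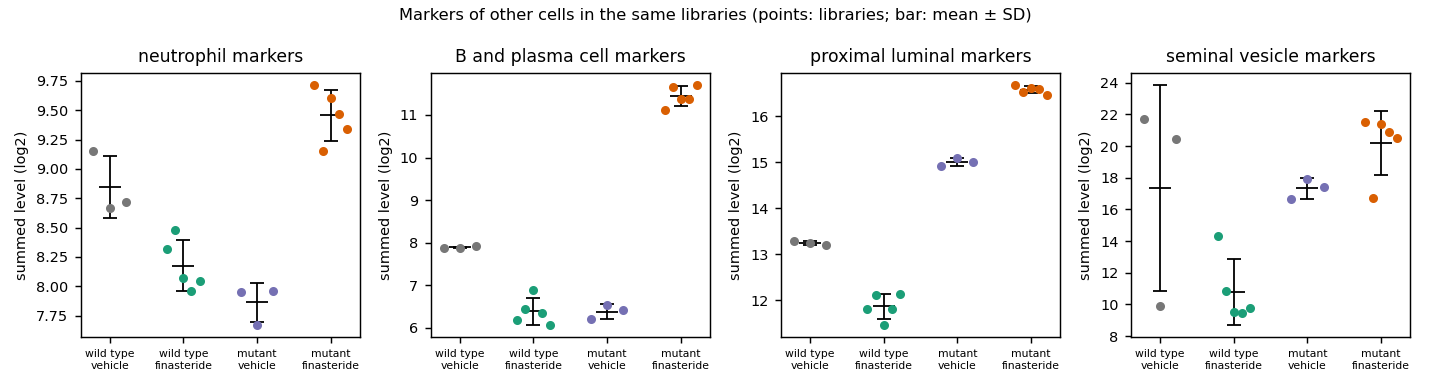
Summed level (log2, y axis) of neutrophil, B and plasma cell, proximal luminal and seminal vesicle markers in the 4 groups, with a point for each library and bars for the mean ± SD. B and plasma cell markers are at 11.12 to 11.70 in mutant finasteride and at most 7.91 elsewhere, and seminal vesicle markers differ between libraries of the same group.

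Genes most like each of the 7 over the 16 libraries were found by the root mean square difference of log2 values centred on each gene's mean. This is a description, in which shared groups and shared libraries weigh on every pair. For Lcn2 they were Ccl8 at 0.333, Lrg1 at 0.354 and Gpx2 at 0.383, beside a spread of 1.649 for Lcn2 itself. Agr2 had Akr1b3 at 0.242, Atp6v1c2 at 0.258 and Adarb2 at 0.28, beside 0.928. The nearest to Reg3g were Ccl6 at 0.564, Serpina3n at 0.641 and Serpinb11 at 0.656, beside 1.448. For Muc1, with 0.916, they were Slc11a1 at 0.444, Slc7a7 at 0.445 and Haus4 at 0.446. For Olfm4, with 2.444, they were Mt3 at 0.677, Gprc6a at 0.713 and Pnliprp1 at 0.837.

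Ltf and Tff3 had immunoglobulin genes as neighbours. Ltf was nearest to Ighv1-53 at 0.649, Igha at 0.858 and Igj at 0.896, beside its own 2.841, and Tff3 was nearest to Ighv1-53 at 0.667, Iglv1 at 0.683 and Abcb5 at 0.716, beside 2.338. Reads of immunoglobulin genes can be split between near-identical copies, so the single gene named is uncertain. Among the 7 genes themselves, the closest pairs were Lcn2 with Reg3g at 0.889 and Ltf with Tff3 at 0.957, and the farthest was Ltf with Olfm4 at 4.875.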

How the data were processed

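The 16 TruSeq libraries of prostate were made from poly-A selected RNA, per the labels' protocols. The tools of the authors were TopHat, Cufflinks, DESeq2, DESeq and CASAVA 1.8.2, on build mm9, per the submitters' processing notes. Which of them made the table, and whether strand was counted, is not given in the sources used here. The deposited values are normalized log2 expression. The base was inferred from totals of the values taken out of log2, which are alike between libraries (log2 totals of 24.07 to 24.55). Low values look shrunken, which was not tested and would make fold changes of such genes too small. Read depth is unknown, so no counting error is given.

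The deposited log2 values of 16895 genes were fitted with limma 3.58.1 in R 4.3.3, with a variance trend and 4 group means, with the Benjamini-Hochberg adjustment over all tested genes. The model was tested on simulated data. The 7 genes were named in every comparison, with up to 4 genes by lowest p from each of 7 pathway lists, of which the text gives a subset, the most abundant or defining genes of 13 cell type lists, and 3 like genes per gene with a mean of at least 50; the per-library values of seminal vesicle genes, Sbp and membrane mucins, and the values of Clca1, Clca3, Muc2, S100a8 and S100a9, were added after values were seen. The genes and lists were chosen with earlier results of these data known. All 244 list symbols matched, 5 through synonyms. Promoters came from RefSeq (GRCm38.p6) by symbol. Alternatives were other filters (none, or a mean of at least 50), quantile normalization, centring on library medians, an added pseudocount of 10, other variance models, fits of the compared groups only, and fits without mixture-like libraries (residual under 0.1 and weights over 0.2), without each library, and, chosen after seeing the data, without libraries rich in seminal vesicle RNA. Proteins were not analysed here, and the gene that differs between the genotypes is not reported here.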

Additional observations from a re-analysis of the deposited data

Results flagged for a closer look

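The finasteride effect differed between the genotypes by a test of the difference itself, the mutant effect minus the wild type effect, by 4.81 for Lcn2, -2.03 for Agr2, -5.63 for Olfm4 and 2.20 for Muc1 (limma, values in log2), and Muc1 no longer passed after quantile normalization, over 11 libraries or over 10. For Ltf, Tff3 and Reg3g the differences were 6.92, 5.10 and 4.98, given as values only, since these genes were tested only because of their level in mutant finasteride. Beside them, 30.2% of all genes tested passed higher and 26.6% lower. Among the groups of 5, in which alone this was examined, a library lay far from the rest in 1: the highest wild type finasteride value of Ltf, 4.56 in library 2, was set apart from the other 4 by more than Dixon's 95% limit for 5 values, which chance alone passes in about 1 of 20 groups.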

How the results depend on the processing

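Every called effect of the 7 genes kept its direction under all alternatives run. Differences that had not passed changed sign: Agr2 on vehicle was 0.0199 after centring (-0.148 to 0.0217 without single libraries), Muc1 in wild type was 0.2397 after quantile normalization (-0.3163 to 0.0731), Tff3 on vehicle was -0.0495 without the libraries rich in seminal vesicle RNA (-0.2192 to 0.1431), and Olfm4 on vehicle was -0.256 with a pseudocount of 10 and -1.8433 without those libraries (-1.5748 to 0.9938). With a mean of at least 50, which leaves out Tff3, Muc1 and Reg3g, 2 genes were higher for finasteride in the mutant, for genotype on finasteride and for the interaction, and 1 was lower for finasteride in wild type and for genotype on vehicle. Fits of the compared groups only gave 2 higher with finasteride in wild type, Agr2 being added. Over 11 libraries, 0 were higher and 1 lower with finasteride in wild type, 1 lower in the mutant, and 0 lower for genotype on vehicle; without the libraries rich in seminal vesicle RNA, 0 were higher and 1 lower with finasteride in wild type. Without mutant vehicle library 1, Muc1 on vehicle was -1.1674 and passed.

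Counts over all genes were lower in both repeats with fewer libraries. Over 11 they were 647 higher and 884 lower for genotype on vehicle, 601 and 844 for wild type finasteride, 1901 and 1530 for mutant finasteride, 3780 and 3166 for genotype on finasteride, and 2936 and 2027 for the interaction. Without libraries rich in seminal vesicle RNA they were 935 and 1307, 358 and 721, 1666 and 2400, 2741 and 3044, and 2249 and 2162, and without wild type vehicle library 1 finasteride in wild type had 1936 higher. Over 16 libraries they were 2413 and 2961, 3027 and 3694, 4439 and 3767, 5735 and 5022, and 5108 and 4489. No paired analysis was possible because the titles carry running numbers that no groups share. The levels of Sbp and seminal vesicle genes that differ between libraries, the low values of several genes and the unknown depth limit these results. If the mixture-like libraries share material with others, p-values are too small, which was not tested.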

Other observations

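Other cell markers of the same libraries, not described above, rose in mutant prostate with finasteride as well. Of 9 macrophage markers 9 rose and of 8 T cell markers 8 rose with finasteride in the mutant, and in wild type 6 and 3 fell. The T cell sum was 9.26 to 10.03 in mutant finasteride, 8.17 to 8.34 in mutant vehicle, 7.60 to 7.78 in wild type vehicle and 7.0 to 7.58 in wild type finasteride, so the groups did not overlap. The macrophage sum was 12.49 to 13.09 in mutant finasteride and 11.22 to 12.22 elsewhere.

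Stromal, luminal, basal and urothelial markers gave these counts. In the mutant with finasteride, 3 of 6 fibroblast, 6 of 6 smooth muscle and 4 of 5 endothelial markers rose and 0 fell; over 11 libraries these were 0, 0 and 4. Of 7 luminal markers 2 rose and 1 fell, of 5 basal markers 0 rose and 1 fell, and of 4 tested urothelial markers 1 rose and 1 fell. Prostate lobe secretory proteins were at a sum of 17.63 to 17.80 in mutant finasteride, 19.00 to 19.31 in mutant vehicle and 20.13 to 20.90 in wild type, with 2 of 5 higher and 2 lower in the mutant with finasteride. Seminal vesicle markers were lower in wild type with finasteride for 8 of 8, a call made for 0 of 8 over 11 libraries.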
